A study of Rattus norvegicus with 12 samples.

Results

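Dietary folic acid given with a low protein diet in pregnancy was the variable of this comparison, which set 4 livers of newborn rats whose dams ate a low protein diet (MLP) against 4 livers of newborns whose dams ate the same kind of diet with extra folic acid (MLP-F). All 8 animals were male Wistar pups sampled on postnatal day 1, and 4 livers of pups from dams on a control diet (C) are given beside them as levels only, with no test. RNA of each liver was hybridised to its own Illumina RatRef-12 Expression BeadChip array, on which beads carry gene probes. The features compared were all probes whose mean over the 8 samples lay above the 30th percentile, 15753 of the 22505 probes in the value table, and 10526 of them carried a symbol, from 10299 genes. Per the study's methods a single litter represented each diet, so the 4 livers of a group are littermates, diet and litter cannot be told apart, and each p-value measures the spread between pups and not between litters. Neither group held a pup whose dam received folic acid without protein restriction, so folic acid was compared only under a low protein diet.

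Folate carries single-carbon units for thymidylate and purine synthesis and, with cobalamin, for turning homocysteine back into methionine. S-adenosylmethionine, made from methionine, is the methyl donor for DNA, histones and small molecules, and the liver holds much of the body's capacity for this cycle. The liver of a newborn rat is still a site of blood formation and of dividing hepatocytes, while the enzymes of urea synthesis, amino acid breakdown and drug metabolism come up around birth.

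Values are given on a re-expanded log2 scale, on which the median of every sample lay between 0.226 and 0.228 and the highest value was 8.816. A difference is always the MLP mean minus the MLP-F mean. A rise or fall is the sign of that difference and does not say which group departed from C. Mean levels in C, MLP and MLP-F were 4.33, 5.64 and 4.34 for Gnmt and 4.61, 3.57 and 4.49 for Mcm6. In these genes C was nearer to MLP-F. The means were 4.51, 4.91 and 3.51 for Cps1, 3.98, 3.87 and 4.66 for Hgd and 5.04, 4.92 and 4.28 for Cat. There C was nearer to MLP. How many genes lay each way was not counted. The scale was inferred from the values, as set out with the processing, and if that reading is right a difference of 1 stands for roughly a doubling of raw intensity, or for more than that in probes near background. A probe is called when limma's Benjamini-Hochberg adjusted p over all 15753 probes is under 0.05. No detection call was used here, so a difference from a group near the sample medians, as in ILMN_1349205, Htra1 and Cyp3a23-3a1, is uncertain in size. In tissue RNA, fewer cells of a type and less RNA per cell cannot be told apart.

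The 4 MLP livers were close to each other (pairwise r between 0.9902 and 0.9933 across probes) and the 4 MLP-F livers less so (0.9801 to 0.99). On the first principal component, 46.5% of the variance, the MLP livers lay between 13.45 and 16.38 and the MLP-F livers between -19.97 and -8.25. MLP-F replicate 2 stood apart: it lay at -19.74 on the second component, had the lowest array weight (0.671), and correlated best with C replicate 2 (r = 0.9929), above its correlation with any MLP-F liver. Results are therefore also given without it. The hepatocyte markers had a median level of 7.27 to 7.46 in the MLP livers and 7.51 to 7.59 in the MLP-F livers, which did not overlap, with 1 of 8 kept probes called (Cps1, higher). Probe by probe these markers went mostly the other way: 6 of the 8 differences were positive and 2 negative, with a median difference of 0.07. Stellate cell markers had 0 of 9 called (3 without MLP-F replicate 1) but 8 negative differences and a median of -0.22. Endothelial markers had 1 of 3 called (Lyve1, higher), macrophage markers 1 of 9 (C1qc, higher), neutrophil markers 1 of 9 (Ngp, higher, with overlapping groups), lymphocyte markers 0 of 6 and cholangiocyte markers 0 of 5. The share called over all kept probes, to be set beside these marker counts, was 6.54%. Lyve1 and Ngp each lost the call in 7 of the 8 fits that left out a liver (adjusted p up to 0.112 and 0.126). Of the probes for tissues outside the liver, Actg2 and Tagln of smooth muscle and Fabp2 of intestine were lower in MLP, Cela1 of pancreas was lower and Tnnc2 of skeletal muscle was higher. Tagln lost its call in 7 of the 8 fits (adjusted p up to 0.125), and Fabp2 in 4. The smooth muscle list had a median level of 0.486 to 0.580 in the MLP livers and 0.975 to 1.395 in the MLP-F livers. In each of these livers that median was the value of Actg2 itself. The median difference of the list was -0.22, and the part of smooth muscle in the results below was not tested. Of the C livers, which enter no test, replicate 1 had a smooth muscle median of 3.68 and replicate 4 a skeletal muscle median of 4.86. C replicate 1 also had a stellate cell median of 3.98 and a skin median of 1.715, and C replicate 4 a lung median of 3.96.

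Livers of the unsupplemented and supplemented groups differed at 1030 probes (6.54% of those tested), of which 538 were higher in MLP (3.42%) and 492 lower (3.12%). At an adjusted p under 0.01 there were 256 calls, 137 higher and 119 lower. That count ran from 73 (without MLP replicate 2) to 441 (without MLP-F replicate 2) with 1 liver left out. Of the called probes 823 carried a symbol, from 816 genes. A probe was called higher in 421 of these genes and lower in 397. Sqstm1, an autophagy receptor, was among the genes with a probe called in each direction, and was not the only such gene. The median size of a called difference was 0.50, and 76 exceeded 1, 53 of them higher in MLP. In 1013 of the called probes the 4 MLP and 4 MLP-F values did not overlap, a separation that 12% of all probes showed. The count of 1030 rested on single livers to a degree: it was 676, 518, 492 and 592 without MLP replicates 1 to 4, and 659, 1543, 921 and 657 without MLP-F replicates 1 to 4. Of the 1030 probes 921 were called again without MLP-F replicate 2, and 391 were called in all 8 fits that left out 1 liver.

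**Figure D1:**
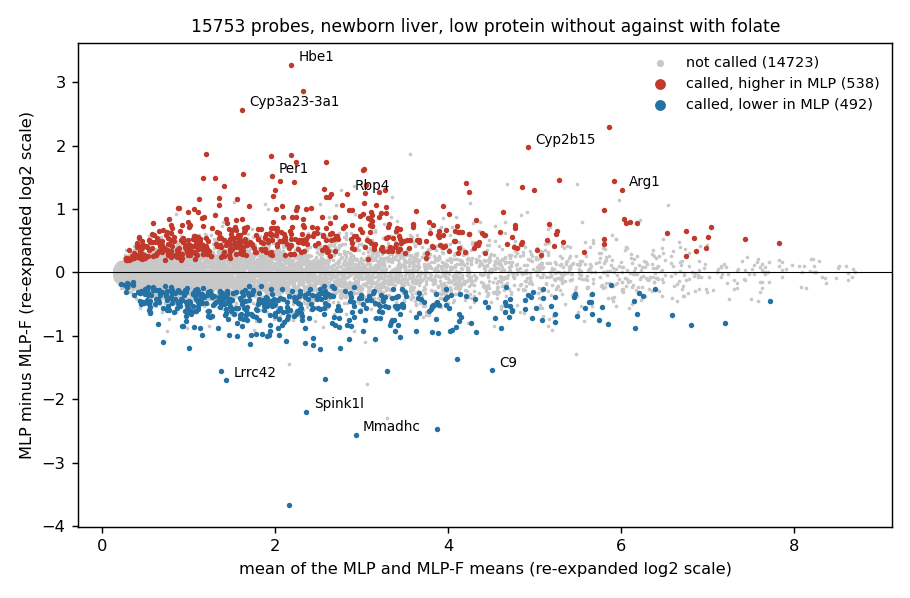
Difference between MLP and MLP-F (y axis, MLP mean minus MLP-F mean) against mean level (x axis) for each of 15753 probes, both on the re-expanded log2 scale. The 538 probes called higher in MLP (red) and the 492 called lower (blue) lie over most of the range of levels, and the unnamed point at the bottom is the probe ILMN_1349205 at -3.67.

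The smallest p-values belonged to genes with unlike functions. The probe ILMN_1349205, which the platform annotation used here leaves unnamed, had 0.27, 0.22, 0.35 and 0.47 in the MLP livers and 3.92, 4.30, 3.90 and 3.84 in the MLP-F livers. It was close to the bottom of the scale in all 4 MLP livers and well above it in the 4 MLP-F livers and in C (3.37 to 3.62), and its difference was -3.67, SE 0.10, adjusted p = 2.59e-06. A second unnamed probe, ILMN_1650062, ran from 5.04 to 5.19 in the MLP-F livers to 2.45 to 2.83 in the MLP livers (-2.47, SE 0.08, adjusted p = 3.4e-06). The next by p, the unnamed ILMN_1352530, was higher in MLP, at 3.74 to 3.87 against 2.53 to 2.63 in MLP-F (1.26, SE 0.05, adjusted p = 6.3e-06). The named gene with the smallest p was Lrrc42, a leucine-rich repeat protein. Its values were 0.50, 0.50, 0.69 and 0.64 in the MLP livers and 2.19, 2.28, 2.25 and 2.44 in the MLP-F livers, with no overlap (-1.70, SE 0.07, adjusted p = 1.22e-05).

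Mmadhc, which passes cobalamin on to methionine synthase and methylmalonyl-CoA mutase, showed the largest fall of a named gene. Its values were 1.72, 1.49, 1.56 and 1.85 in the MLP livers and 3.59, 4.48, 4.13 and 4.67 in the MLP-F livers. Every MLP liver was below every MLP-F liver, and the C livers (4.43 to 4.56) lay in the upper part of the MLP-F range (-2.56, SE 0.21, adjusted p = 0.00102). It was the single gene called of 11 kept probes for cobalamin handling, 9.09% against 6.54% of all probes (2 called without MLP-F replicates 2 or 4). Mtr, the cobalamin-dependent methionine synthase itself, had a difference of 0.08 (adjusted p = 0.775). Hbe1, the embryonic epsilon globin, showed the largest rise. It had 4.04, 2.67, 4.70 and 3.90 in the MLP livers and 0.69, 0.40, 0.75 and 0.37 in the MLP-F livers. The lowest MLP liver stood well above the highest MLP-F liver and above the highest C liver (1.99), with a difference of 3.28, SE 0.36, adjusted p = 0.00265. The erythroid list as a whole did not rise with it. Of 35 kept probes for erythroid genes and haem synthesis 2 were higher, Hbe1 and the erythroid haem enzyme Alas2 (0.33), and 3 lower, namely Hbb-b1, Ahsp, which stabilises alpha globin, and the carbonic anhydrase Car2, against a list median of -0.16 and a median over all probes of -0.00154. The share called was 14.3% against 6.54% of all probes. Alas2 lost its call without MLP replicates 1, 2, 3 or 4 or MLP-F replicates 1 or 3 (adjusted p up to 0.11). Of the falls, Ahsp lost its call in 7 of the 8 fits (adjusted p up to 0.121), Hbb-b1 in 3 (up to 0.0688) and Car2 in 3 (up to 0.0548), and the count of calls in the list was 1 without MLP replicate 4, 2 without MLP replicates 2 or 3 or MLP-F replicate 1 and 3 without MLP replicate 1 or MLP-F replicate 4.

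Others among the leading genes act outside the cell or at its surface. Spink1l, a serine protease inhibitor of the Kazal type, had 1.32, 1.61, 0.78 and 1.36 in the MLP livers and 3.23, 3.56, 3.98 and 3.07 in the MLP-F livers (-2.19, SE 0.23, adjusted p = 0.00197). Cldn3, a tight junction claudin, went from 1.58 to 2.47 in the MLP-F livers to 0.41 to 0.82 in the MLP livers (-1.55, SE 0.19, adjusted p = 0.00402). Both were lower in all 4 MLP livers. Htra1, a secreted serine protease, was at 0.18 to 0.35 in MLP and at 1.01 to 1.17 in MLP-F (-0.82). Slc22a7, an organic anion transporter, fell by 1.05. Pmepa1, a regulator of TGF-beta signalling, rose by 1.74, and Tsku, a secreted leucine-rich repeat protein, by 1.35.

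**Figure D2:**
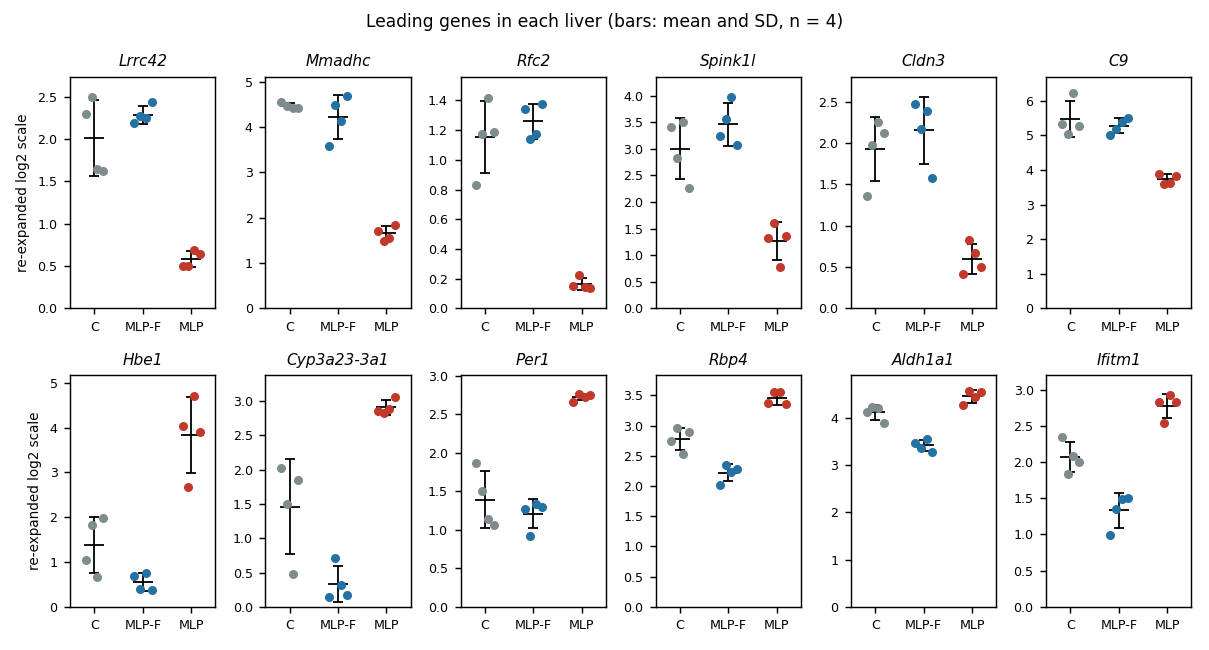
Level of 12 leading genes in each liver (y axis, re-expanded log2 scale, from 0), in C, MLP-F and MLP, with bars for the mean and SD of 4 livers. In all 12 genes the MLP and MLP-F points do not overlap; Mmadhc lies between 1.49 and 1.85 in MLP and between 3.59 and 4.67 in MLP-F.

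Genes of DNA replication were lower in MLP, with 0 higher. Among 32 kept probes for the replication fork and nucleotide supply 12 were called lower, 37.5% against 3.12% of all probes, with a median difference of -0.40. The helicase and origin licensing list had 6 of 24 lower (25%) and a median of -0.21. With 1 liver left out the first count was 10, 5, 6 and 7 without MLP replicates 1 to 4 and 9, 14, 16 and 8 without MLP-F replicates 1 to 4, and the second 6, 4, 3 and 3 without MLP replicates 1 to 4 and 3, 5, 8 and 3 without MLP-F replicates 1 to 4. Negative differences were the rule in both, at 28 of 32 and 19 of 24 probes.

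Rfc2, a subunit of the clamp loader that places PCNA on DNA, had 0.15, 0.22, 0.15 and 0.14 in the MLP livers and 1.34, 1.14, 1.17 and 1.38 in the MLP-F livers (adjusted p = 0.000138). All 4 MLP values lay below the sample medians, where a value may be background, so the size of the fall is not given. Rfc4, another subunit, fell by 0.72, from 4.66 to 5.19 in MLP-F to 3.96 to 4.33 in MLP, and lost its call without MLP replicate 2 (adjusted p 0.0541). Tyms, which uses a folate cofactor to make thymidylate, had 1.71, 1.25, 1.18 and 1.61 in the MLP livers and 2.69, 2.24, 2.11 and 2.65 in the MLP-F livers (-0.99, SE 0.17, adjusted p = 0.0145). The lowest MLP-F value, 2.11, was above the highest MLP value, 1.71. Pole, the catalytic subunit of the leading-strand polymerase, fell by 0.56, and Chaf1b, a subunit of the chromatin assembly factor that loads histones on new DNA, by 0.42. Rnaseh2a, which removes ribonucleotides from DNA, fell by 0.39.

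Of the replicative helicase, 2 of the 6 core Mcm subunits were called. Mcm6 had 3.78, 3.58, 3.28 and 3.62 in the MLP livers and 4.66, 4.25, 4.20 and 4.85 in the MLP-F livers, which did not overlap (-0.92, SE 0.16, adjusted p = 0.0158). The C livers (4.31 to 4.79) lay within the MLP-F range. For Mcm7 the values were 2.53, 2.45, 2.31 and 2.38 in the MLP livers and 2.99, 3.06, 2.78 and 3.21 in the MLP-F livers (-0.59, SE 0.09, adjusted p = 0.00961). Mcm10, which joins the helicase to the fork, fell by 0.43. Mcm2 (-0.51, adjusted p = 0.0648), Mcm3 (-0.44, 0.149) and Mcm4 (-0.30, 0.0876) had negative differences that did not pass, and Mcm5 had a difference of 0.04 (0.892). Gmnn, the licensing inhibitor geminin, missed the threshold (-0.63, adjusted p = 0.0563). Pcna, the sliding clamp, was looked up after these values were seen, and it had a difference of -0.73 (adjusted p = 0.0508).

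The E2F transcription factors drive many replication genes, and sites of the type TTTGGCGC or TTTCCCGC were searched on both strands in RefSeq promoter windows of build GRCr8, each of 300 bases with 250 before the gene's start. Of all 33469 such windows 1.45% held a site. Among the helicase and origin licensing genes with a window it was 11 of 17, made up of 3 of 4 genes called lower and 8 of 13 not called. Among the replication fork genes it was 8 of 29, made up of 3 of 11 called lower (27.3%) and 5 of 18 not called (27.8%). The mitosis list had 1 of 40, in Stmn1. A match is a description of the letters in the window and not evidence of binding. Stretches of 60 bases before the start, 5′ to 3′ on the gene's strand with the site in capitals, are shown for 5 called genes so that the sites of genes that were lower together can be compared.
Mcm6, chr13:42404458-42404517 (minus strand): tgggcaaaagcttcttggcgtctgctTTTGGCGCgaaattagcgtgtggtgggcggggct
Mcm7, chr12:22163369-22163428 (minus strand): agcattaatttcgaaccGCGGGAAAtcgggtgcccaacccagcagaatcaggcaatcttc
Gins1, chr3:160184860-160184919 (plus strand): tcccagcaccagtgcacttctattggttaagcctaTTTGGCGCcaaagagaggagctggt
Tyms, chr9:120776087-120776146 (minus strand): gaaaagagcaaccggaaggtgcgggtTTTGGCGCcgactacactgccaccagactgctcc
Stmn1, chr5:151965074-151965133 (plus strand): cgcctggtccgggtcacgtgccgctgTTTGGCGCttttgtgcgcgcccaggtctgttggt
The site began 139 bases before the start in Mcm6, 233 in Mcm7, 25 in Gins1, 37 in Tyms and 79 in Stmn1. Gins1, a subunit of the GINS complex of the helicase, and Stmn1, a microtubule regulator, had differences of -0.48 and -0.56. Gins1 lost its call without MLP replicates 3 or 4 or MLP-F replicates 1 or 4 (adjusted p up to 0.0859), and Stmn1 lost its call without MLP replicates 1 or 3 (adjusted p up to 0.0518).

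Genes of mitosis were lower as well. Of 50 kept probes 12 were called lower, 24% against 3.12% of all probes, and 0 higher, 47 had a negative difference and the median was -0.39. The count of calls was 6, 3, 2 and 4 without MLP replicates 1 to 4 and 6, 9, 25 and 7 without MLP-F replicates 1 to 4. Knstrn, a spindle and kinetochore protein, had 1.96, 1.56, 1.75 and 1.89 in the MLP livers and 3.18, 2.86, 2.43 and 3.13 in the MLP-F livers (-1.11, SE 0.17, adjusted p = 0.00836). Kif20a, a kinesin of cytokinesis, ran from 1.91 to 2.46 in the MLP-F livers to 1.37 to 1.51 in the MLP livers (-0.75, SE 0.10, adjusted p = 0.00638). Both kept their calls in all 8 fits with 1 liver left out, and the mitotic kinase Aurkb did not (-0.69, adjusted p = 0.0482): it lost its call without MLP replicates 1, 2, 3 or 4 or MLP-F replicates 1, 2 or 4 (adjusted p up to 0.128). Tmpo, a lamina-associated protein of the nuclear envelope, fell by 1.05, and the tubulins Tuba1a and Tubb5 fell by 0.88 and 0.84. Another tubulin, Tubb2a, went the other way (0.48, adjusted p = 0.0333). Its call was lost without MLP replicates 1, 2, 3 or 4 or MLP-F replicate 4 (adjusted p up to 0.0957). Cdk1, the mitotic kinase looked up after these values were seen, had -0.87 (adjusted p = 0.061).

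Of 21 kept probes for the cell cycle regulators (E2F factors, pocket proteins and regulators of the first gap phase) 2 were lower and 1 higher, 14.3% against 6.54% of all probes, with a median of -0.05. The number called was 1 without MLP replicate 3 or MLP-F replicate 4. Tfdp1, the partner with which E2F proteins bind DNA, had 3.58, 3.46, 3.41 and 3.59 in the MLP livers and 4.11, 4.09, 3.86 and 4.30 in the MLP-F livers (-0.58, SE 0.09, adjusted p = 0.0102). E2f1 had a difference of -0.48 and Cdkn1c, an imprinted inhibitor of cyclin-dependent kinases, one of 0.38. E2f1 lost its call without MLP replicates 3 or 4 or MLP-F replicates 1 or 4 (adjusted p up to 0.0661), and Cdkn1c lost its call without MLP replicates 1, 2 or 3 or MLP-F replicates 3 or 4 (adjusted p up to 0.0775). Of 37 kept probes for DNA repair 1 was higher and 2 lower, 8.11% in all, and the number called was 1 without MLP replicates 1 or 3 and 6 without MLP-F replicate 2.

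**Figure D3:**
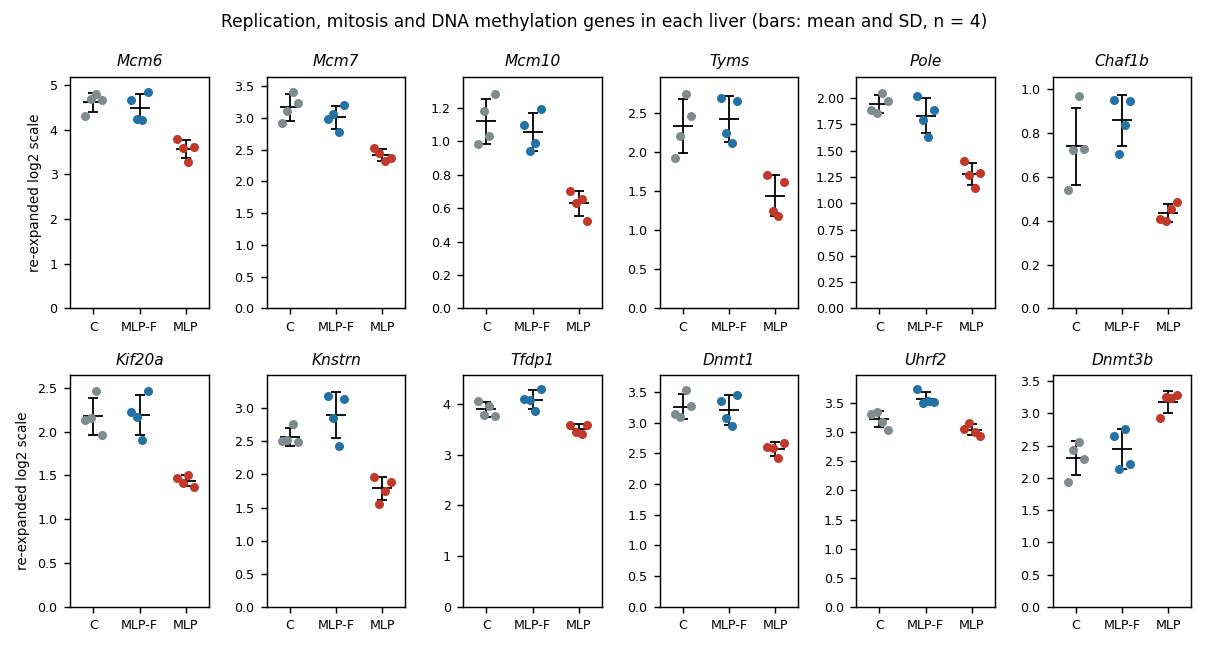
Level of 12 genes of replication, mitosis and DNA methylation in each liver (y axis, re-expanded log2 scale, from 0), in C, MLP-F and MLP, with bars for the mean and SD of 4 livers. The MLP points lie below the MLP-F points in 11 genes and above them in Dnmt3b.

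The enzymes that write and read DNA methylation went in both directions. Of 10 kept probes 2 were lower and 1 was higher, 30% against 6.54% of all probes, and the count of calls was 1 without MLP replicate 3. Dnmt1, which copies methylation to new DNA, had 2.61, 2.59, 2.42 and 2.67 in the MLP livers and 3.34, 3.08, 2.94 and 3.45 in the MLP-F livers (-0.63, SE 0.11, adjusted p = 0.0173). All 4 MLP livers were below all 4 MLP-F livers, although it lost its call without MLP replicate 3 (adjusted p 0.0526). Uhrf2, which binds hemimethylated DNA, fell by 0.54. Dnmt3b, a methyltransferase that sets new methylation, went the other way with 2.92, 3.26, 3.24 and 3.28 in the MLP livers and 2.64, 2.15, 2.77 and 2.22 in the MLP-F livers (0.73, SE 0.15, adjusted p = 0.0264). Its highest MLP-F liver was at 2.77 and its lowest MLP liver at 2.92, and it lost its call without MLP replicates 2, 3 or 4 or MLP-F replicate 4 (adjusted p up to 0.0783). Dnmt3a, its close relative, had 0.28 (adjusted p = 0.187). Of 34 probes for histone variants, Polycomb proteins and histone modifiers 4 were lower, among them the histone variant H2az1 (-0.66), and 1 was higher, Cbx2 of a Polycomb complex (0.46). Together that was 14.7% against 6.54% of all probes. The count of calls there was 0 without MLP replicate 3, 1 without MLP replicates 2 or 4 or MLP-F replicate 4 and 3 without MLP replicate 1 or MLP-F replicate 1. H2az1 lost its call without MLP replicates 1, 2, 3 or 4 or MLP-F replicate 1 (adjusted p up to 0.0751), and Cbx2 lost its call without MLP replicates 1, 2, 3 or 4 or MLP-F replicates 3 or 4 (adjusted p up to 0.0904). Ezh2, the Polycomb methyltransferase, had -0.15 (adjusted p = 0.606).

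The methyl cycle that supplies these enzymes showed 3 rises and 0 falls among 26 kept probes (11.5% against 6.54% of all probes), with a median of 0.05, and 4 rises and 1 fall without MLP-F replicate 2. Mat1a, which makes S-adenosylmethionine in adult hepatocytes, had 4.25, 3.88, 3.74 and 3.81 in the MLP livers and 2.35, 3.27, 2.71 and 2.14 in the MLP-F livers (1.30, SE 0.23, adjusted p = 0.0158). Its MLP-F replicate 2 was the highest of that group. Gnmt, which spends the methyl group on glycine, had 5.73, 5.47, 5.70 and 5.68 in the MLP livers and 4.36, 4.13, 5.02 and 3.87 in the MLP-F livers (1.30, SE 0.21, adjusted p = 0.0125). Ahcy, which hydrolyses the S-adenosylhomocysteine left by methylation, had 6.54, 6.40, 6.52 and 6.35 in the MLP livers and 5.42, 5.56, 5.94 and 5.54 in the MLP-F livers (0.84, SE 0.11, adjusted p = 0.00463). In all 3 genes each MLP liver was above each MLP-F liver, and each call was kept in all 8 fits that left out a liver. The C livers had 3.18 to 3.94 for Mat1a, 3.68 to 4.94 for Gnmt and 5.62 to 5.96 for Ahcy. Bhmt, which remethylates homocysteine with betaine, had a difference of 0.30 (adjusted p = 0.77) and Cbs, which commits it to cysteine, 0.39 (0.497); both were looked up after the called genes were seen.

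Folate enzymes and carriers, the genes nearest to the supplement, had 1 of 19 kept probes higher and 2 lower, 15.8% against 6.54% of all probes, with a median of -0.01. The rise was Qdpr, which regenerates tetrahydrobiopterin, a pterin cofactor related to folate, with 3.47, 2.90, 3.40 and 3.32 in the MLP livers and 1.85, 1.97, 2.12 and 2.17 in the MLP-F livers (1.24, SE 0.13, adjusted p = 0.00198). The falls were Tyms, given above, and Amt of the glycine cleavage system (-0.31), which lost its call in each of the 8 fits that left out a liver (adjusted p up to 0.118). Without MLP-F replicate 2 the list had 3 higher and 1 lower, and without any other single liver it had 2 calls. Mthfd1, which interconverts the cytosolic single-carbon folates, had 0.32 (adjusted p = 0.109) and was looked up afterwards.

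Drug and steroid metabolism held some of the largest rises. Of 25 kept probes for the receptors CAR, PXR and AhR and their targets 8 were higher and 0 lower, 32% against 3.42% of all probes, with a median of 0.35. The count was 5 without MLP replicate 4 or MLP-F replicate 4. Cyp3a23-3a1, a steroid and drug hydroxylase and a classic PXR target, had 2.85, 2.82, 2.89 and 3.06 in the MLP livers and 0.14, 0.71, 0.33 and 0.17 in the MLP-F livers (2.57, SE 0.12, adjusted p = 4.27e-05). The MLP livers were close together and far above all MLP-F livers, and its other probe was called too, with 2.30. Cyp2b15, of the family that CAR induces, had 5.56, 5.72, 6.34 and 6.03 in the MLP livers and 3.70, 4.13, 4.40 and 3.53 in the MLP-F livers (1.97, SE 0.22, adjusted p = 0.00282). The receptors had no call: PXR (Nr1i2) had 0.40 (adjusted p = 0.114) and CAR (Nr1i3) 0.13 (0.879).

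Conjugating enzymes rose in part. Among 42 kept probes of the Ugt, Sult and Gst families 7 were higher and 1 lower, 19% against 6.54% of all probes. Ugt1a1, which conjugates bilirubin, had 2.90, 2.84, 2.82 and 2.93 in the MLP livers and 0.73, 2.01, 1.00 and 0.44 in the MLP-F livers (1.83, SE 0.29, adjusted p = 0.0102). The MLP livers were close together while MLP-F ranged widely, with replicate 2 highest, and without that liver the difference was 2.15. Ugt1a6 rose by 1.49 and Ugt1a7c by 1.43. These genes share their last exons at 1 locus, so their probes need not be independent. The glutathione transferase Gstm1 had 5.81, 5.36, 5.37 and 5.56 in the MLP livers and 3.74, 4.20, 4.88 and 3.88 in the MLP-F livers (1.35, SE 0.23, adjusted p = 0.0152), and its relative Gstm2 rose by 0.66. Members of this family are similar in sequence, and shared signal between their probes was not tested. The fall was Sult2a6, a sulfotransferase of steroids and bile acids (-0.70). Of 30 probes for cytochrome P450 families 2 and 4 there were 6 rises and 1 fall, 23.3% against 6.54% of all probes. The number called was 3 without MLP replicates 2 or 4 and 4 without MLP replicate 3 or MLP-F replicate 1. Cyp2e1, which oxidises ethanol and ketones, rose by 1.46 but lost its call without MLP replicates 2 or 4 (adjusted p up to 0.0534). Cyp4a1, a fatty acid hydroxylase, had 1.69 to 1.90 in MLP and 1.04 to 1.19 in MLP-F (0.68), with 1 of its 2 probes called. Fmo1, a flavin-containing oxygenase, and Aox1, aldehyde oxidase, were lower (-1.55 and -0.99), and Fmo1 lost its call without MLP replicates 1, 2, 3 or 4 or MLP-F replicate 4 (adjusted p up to 0.0649).

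Enzymes of amino acid breakdown were among the rises. In the urea cycle list 3 of 13 probes were higher, 23.1% against 3.42% of all probes, and 0 lower, and the count was 1 without MLP replicate 2. Arg1, the last enzyme of the cycle, had 6.74, 6.79, 6.56 and 6.57 in the MLP livers and 5.30, 5.27, 5.91 and 4.96 in the MLP-F livers (1.30, SE 0.18, adjusted p = 0.00572). Cps1, the first, had 5.14, 4.92, 4.83 and 4.75 in the MLP livers and 3.09, 4.10, 3.95 and 2.90 in the MLP-F livers (1.40, SE 0.27, adjusted p = 0.0199), and it lost its call without MLP replicates 1, 2 or 3 (adjusted p up to 0.0585). The C livers had 5.37 to 5.91 for Arg1 and 3.89 to 5.14 for Cps1. Slc25a15, the mitochondrial ornithine carrier, rose by 0.96 and lost its call without MLP replicate 2 (adjusted p 0.0552). The steps between did not pass: Ass1 had 1.06 (adjusted p = 0.0828) and Otc -0.02 (0.977), both looked up afterwards.

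Branched-chain amino acid catabolism had 4 of 20 probes higher (20% against 3.42% of all probes) and 0 lower. Bckdha and Bckdhb form the first component of the branched-chain keto acid dehydrogenase, the committed step. Bckdha had 3.52, 3.35, 3.71 and 3.52 in the MLP livers and 2.51, 2.90, 2.81 and 2.60 in the MLP-F livers (0.82, SE 0.10, adjusted p = 0.0046). Bckdhb had 3.57, 3.32, 3.38 and 3.42 in the MLP livers and 2.28, 2.95, 2.42 and 2.51 in the MLP-F livers (0.89, SE 0.14, adjusted p = 0.00903), with MLP-F replicate 2 the nearest to MLP. Hsd17b10, of the isoleucine pathway, rose by 0.88, and Ivd, of the leucine pathway, by 0.40, and Ivd lost its call without MLP replicates 2 or 3 (adjusted p up to 0.0579). Of the other enzymes, Aass of lysine breakdown rose by 1.75, and the transaminases Got1 and Gpt by 1.45 and 1.19. Got1 was at 6.38 to 7.24 in MLP and 4.62 to 5.57 in MLP-F. Aromatic amino acid catabolism was split, with 3 of 14 probes higher and 2 lower (35.7% against 6.54% of all probes), and the number called was 3 without MLP replicates 1, 3 or 4. Hpd and Hgd, of tyrosine breakdown, had differences of 0.78 and -0.79 and lost their calls in 6 and 4 of the 8 fits that left out a liver. Aadat, a kynurenine aminotransferase, rose by 0.68 while Kmo, the competing kynurenine hydroxylase, had 1.24, 1.72, 1.12 and 1.53 in the MLP livers and 2.73, 2.62, 2.08 and 2.21 in the MLP-F livers (-1.01, SE 0.18, adjusted p = 0.0158).

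The glucocorticoid receptor and its targets had 6 of 27 probes higher (22.2% against 3.42% of all probes), 0 lower and a median of 0.39, the highest among the lists of function. Without MLP-F replicate 2 the median was 0.26, with 7 higher. The count of calls was 4, 4, 4 and 6 without MLP replicates 1 to 4 and 6, 7 and 5 without MLP-F replicates 1, 3 and 4. Of its called genes Cps1, given above, lost the call in 3 of the 8 fits and Sgk1 (0.39) in 5. Klf15, a glucocorticoid-induced factor of amino acid catabolism, had 1.69, 1.92, 1.58 and 2.37 in the MLP livers and 0.64, 0.65, 1.20 and 0.81 in the MLP-F livers (1.06, SE 0.18, adjusted p = 0.0154). Fkbp5, a cochaperone of the receptor, had 4.31 to 4.87 in MLP and 3.85 to 4.04 in MLP-F (0.60). Gadd45b, a stress gene that the list also holds, rose by 0.48. Tsc22d3, a standard target looked up afterwards, had 0.07 (adjusted p = 0.817).

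Per1 belongs to both this list and the circadian clock, where it is a repressor. It had 2.66, 2.76, 2.72 and 2.76 in the MLP livers and 1.27, 0.93, 1.34 and 1.29 in the MLP-F livers, and the 4 MLP livers were close together above them (1.52, SE 0.09, adjusted p = 0.000142). Of 14 clock probes 0 were lower and 3 higher (21.4% against 3.42% of all probes), Per1, Usp2, a deubiquitinase under clock control (1.30), and Per2 (0.85). Usp2 lost its call without MLP replicates 1 or 2 or MLP-F replicates 1 or 4 (adjusted p up to 0.065), and Per2 lost its call without MLP replicates 1, 2, 3 or 4 or MLP-F replicates 2, 3 or 4 (adjusted p up to 0.0939). The list's count was 1 without MLP replicates 1 or 2 or MLP-F replicate 4. Dbp (0.05, adjusted p = 0.873) and Nr1d1 (0.09, 0.596), both clock outputs looked up afterwards, were not called. The hour of sampling was not used here. Cirbp, a cold-inducible RNA-binding protein, had 2.11, 1.95, 1.91 and 1.99 in the MLP livers and 1.39, 1.23, 1.28 and 1.36 in the MLP-F livers (0.67, SE 0.06, adjusted p = 0.00122), with the C livers in between at 1.63 to 1.81.

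**Figure D4:**
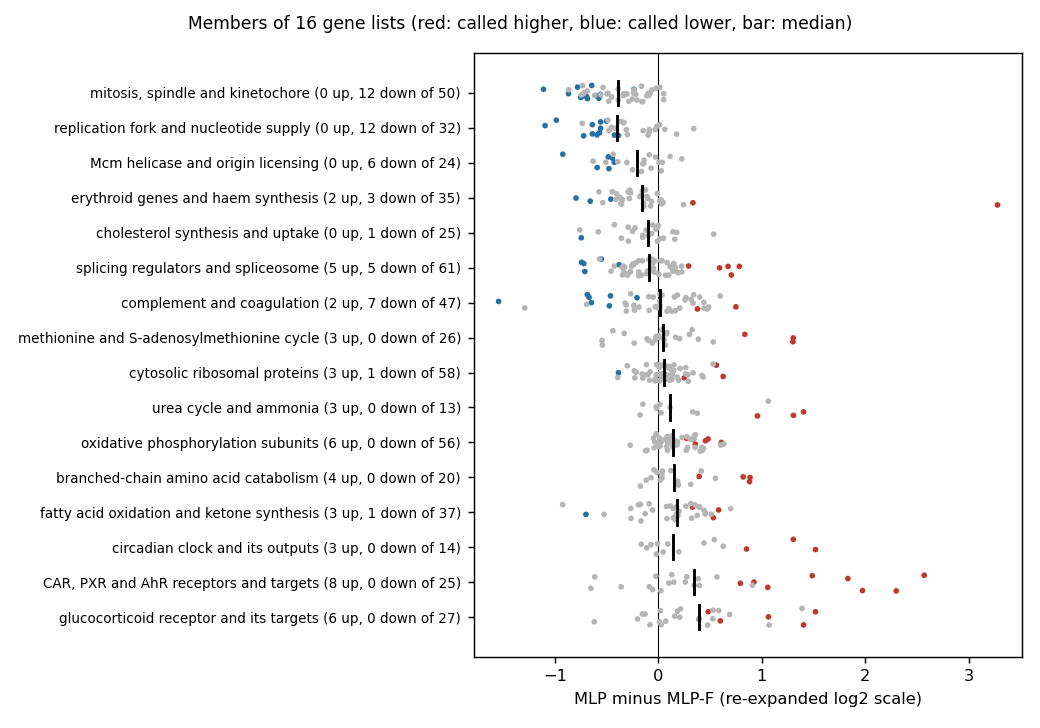
Difference between MLP and MLP-F (x axis, re-expanded log2 scale) for the kept probes of 16 gene lists, with probes called higher in red, called lower in blue, not called in grey, and a bar at each list's median. The medians run from -0.40 for the replication fork to 0.39 for the glucocorticoid list; the vertical jitter within a row carries no value.

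Lipid genes gave mixed counts. Of 34 probes for fatty acid and triglyceride synthesis 4 were higher and 2 lower, 17.6% against 6.54% of all probes. Dgat1, which completes triglyceride, had 4.02, 4.28, 4.06 and 4.10 in the MLP livers and 3.07, 3.31, 3.27 and 2.92 in the MLP-F livers (0.98, SE 0.10, adjusted p = 0.00177). Lpin1, the phosphatidate phosphatase that comes before it, had 2.23, 1.99, 1.92 and 2.43 in the MLP livers and 0.85, 0.98, 1.20 and 0.93 in the MLP-F livers (1.15, SE 0.12, adjusted p = 0.00214). Plin5, a lipid droplet protein of oxidative tissues, went from 0.11 to 0.63 in MLP-F to 1.05 to 1.61 in MLP (1.01). The falls were the desaturases Fads1, at 2.46, 2.34, 2.57 and 2.54 in the MLP livers and 3.20, 3.40, 3.08 and 3.25 in the MLP-F livers (-0.75, SE 0.08, adjusted p = 0.00195), and Fads2 (-0.94), which lost its call without MLP replicates 2, 3 or 4 or MLP-F replicates 1 or 3 (adjusted p up to 0.0688). Fatty acid oxidation had 3 of 37 higher and 1 lower (10.8% against 6.54% of all probes) but 26 positive differences and a median of 0.18. Its count of calls was 1 without MLP replicate 2 or MLP-F replicate 1, 2 without MLP replicates 3 or 4 or MLP-F replicate 3 and 8 without MLP-F replicate 2. Decr2, a peroxisomal reductase, rose by 0.58. Fabp2, a fatty acid carrier of enterocytes, had 1.64, 1.91, 1.63 and 1.78 in the MLP livers and 3.29, 4.52, 2.91 and 2.95 in the MLP-F livers, and it lost its call without MLP replicates 1, 2, 3 or 4 (adjusted p up to 0.065); without MLP-F replicate 2, its highest liver, the difference was -1.31. Cholesterol synthesis and uptake had 1 of 25 lower and 0 higher, 4% against 6.54% of all probes. The number called was 0 without MLP replicates 2, 3 or 4 and 3 without MLP-F replicate 3. Abcg5, which exports sterols into bile, rose by 0.73.

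Peroxisome genes had 7 of 44 higher and 1 lower, 18.2% against 6.54% of all probes. The number called was 3 without MLP replicates 2 or 3 or MLP-F replicate 1 and 4 without MLP replicate 4 or MLP-F replicate 4. Pex16, which inserts peroxisomal membrane proteins, rose by 0.82, its partner Pex3 by 0.48, and catalase (Cat) by 0.64; the fall was Hao1, a glycolate oxidase (-1.08), and it lost its call without MLP replicates 2, 3 or 4 or MLP-F replicates 1 or 4 (adjusted p up to 0.0833). Mitochondrial energy genes shifted by small amounts. Of 56 probes for oxidative phosphorylation 47 had a positive difference, the median was 0.14, and 6 were called higher (10.7% against 3.42% of all probes) and 0 lower. The count depended on 1 liver, being 19 without MLP-F replicate 2 and 2, 2, 2, 3, 2, 4 and 3 without each of the other 7 livers (MLP replicates 1 to 4, then MLP-F replicates 1, 3 and 4). Ndufs7 of complex I rose by 0.46 and Sdhd, an anchor of succinate dehydrogenase, by 0.36. Slc25a11, which exchanges oxoglutarate for malate, had 3.55, 3.32, 3.24 and 3.27 in the MLP livers and 2.19, 2.89, 2.19 and 2.20 in the MLP-F livers (0.98, SE 0.16, adjusted p = 0.0123). Pdk1, which switches off pyruvate dehydrogenase, rose by 0.58.

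**Figure D5:**
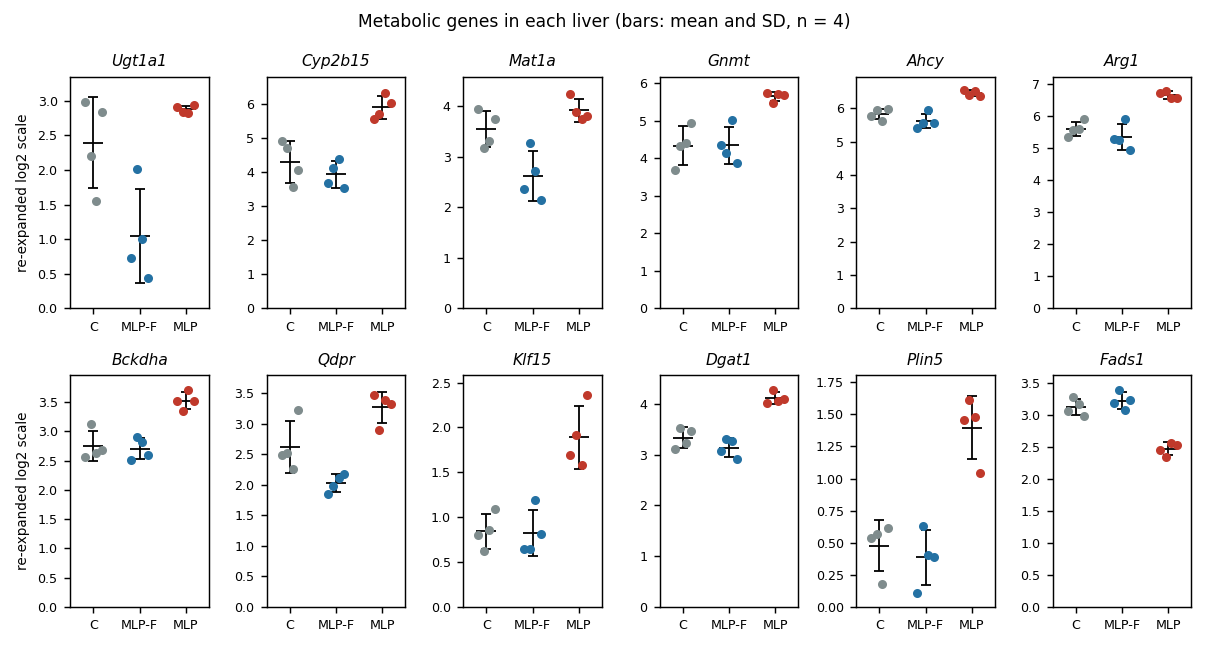
Level of 12 metabolic genes in each liver (y axis, re-expanded log2 scale, from 0), in C, MLP-F and MLP, with bars for the mean and SD of 4 livers. The MLP points lie above the MLP-F points in 11 genes and below them in Fads1.

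Among retinoid genes 4 of 32 kept probes were higher and 1 lower, 15.6% against 6.54% of all probes, and 8 were called without MLP-F replicate 2. Rbp4, the plasma carrier of retinol, had 3.37, 3.55, 3.55 and 3.35 in the MLP livers and 2.02, 2.35, 2.24 and 2.28 in the MLP-F livers (1.24, SE 0.08, adjusted p = 0.000399). Aldh1a1, which makes retinoic acid, had 4.27, 4.57, 4.44 and 4.55 in the MLP livers and 3.46, 3.36, 3.56 and 3.29 in the MLP-F livers (1.04, SE 0.08, adjusted p = 0.00101). Rbp2, a cellular retinol-binding protein, had 4.08, 3.39, 3.89 and 3.92 in the MLP livers and 2.29, 2.47, 2.09 and 1.96 in the MLP-F livers (1.62, SE 0.16, adjusted p = 0.00177). In all 3 the groups were apart in every liver, and the C livers had 2.53 to 2.96 for Rbp4, 3.89 to 4.23 for Aldh1a1 and 1.72 to 2.75 for Rbp2. Dgat1, which also esterifies retinol, was the fourth rise and Aox1 the fall, and both are given above.

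Secreted proteins of the liver moved in both directions. Of 31 kept probes for fetal and adult secreted hepatocyte proteins 5 were higher and 2 lower, 22.6% against 6.54% of all probes, with a median of 0.03. Complement and coagulation had 7 of 47 probes lower and 2 higher, 19.1% against 6.54% of all probes, with a median of 0.01. C9, the pore-forming protein at the end of the complement cascade, had 3.88, 3.60, 3.63 and 3.84 in the MLP livers and 5.01, 5.20, 5.39 and 5.51 in the MLP-F livers (-1.54, SE 0.12, adjusted p = 0.000727). C6 and C8a, of the same membrane attack complex, fell by 0.67 and 0.47. C1qc, made by macrophages, rose by 0.75. Without MLP-F replicate 2 the list had 7 higher and 7 lower, and its count of calls was 5, 4, 4 and 4 without MLP replicates 1 to 4 and 5 without MLP-F replicate 1. Itih4, an acute phase protein, had 6.45, 6.45, 6.32 and 6.36 in the MLP livers and 7.22, 7.18, 7.40 and 7.09 in the MLP-F livers (-0.83, SE 0.07, adjusted p = 0.00102), and Azgp1, a secreted glycoprotein of adult liver, rose by 0.71. Hepatocyte transcription factors had 3 of 31 higher and 2 lower, 16.1% against 6.54% of all probes. The number called was 2 without MLP replicates 3 or 4 or MLP-F replicate 4 and 3 without MLP replicates 1 or 2 or MLP-F replicates 1 or 3. Onecut1, a factor of hepatocyte and bile duct development, had 3.85, 3.71, 3.01 and 3.09 in the MLP livers and 4.78, 4.74, 4.46 and 5.17 in the MLP-F livers (-1.37, SE 0.22, adjusted p = 0.011). The fetal proteins Afp and Igf2, looked up afterwards, had -0.17 (adjusted p = 0.137) and -0.01 (0.98). Dlk1, an imprinted fetal protein, rose by 1.04, and the imprinted Snrpn, a small nuclear ribonucleoprotein, had 3.02, 3.10, 2.94 and 3.04 in the MLP livers and 2.33, 2.10, 2.38 and 2.16 in the MLP-F livers (0.78, SE 0.07, adjusted p = 0.00132). These 2 and Cdkn1c were the 3 imprinted probes called of 19, 15.8% against 6.54% of all probes.

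Interferon and antigen presentation genes went both ways, with 3 of 39 higher and 3 lower (15.4% against 6.54% of all probes), and a count of 3 without MLP replicates 1 or 3. Ifitm1, a membrane protein against viral entry, had 2.83, 2.54, 2.92 and 2.83 in the MLP livers and 0.99, 1.35, 1.48 and 1.51 in the MLP-F livers (1.45, SE 0.13, adjusted p = 0.00125), and its relative Ifitm3 rose by 1.27. Ifit1, a canonical interferon target, had 2.47, 2.18, 2.64 and 2.34 in the MLP livers and 1.46, 1.68, 0.10 and 0.16 in the MLP-F livers, and it lost its call without MLP replicates 1, 2, 3 or 4 or MLP-F replicates 3 or 4 (adjusted p up to 0.107). Psmb10, an immunoproteasome subunit, fell by 0.52, with 1 of its 2 probes called. Of 42 probes for apoptosis 3 were higher and 2 lower, 11.9% against 6.54% of all probes. The number called was 2 without MLP replicates 2 or 3 or MLP-F replicate 1, 3 without MLP replicates 1 or 4 and 11 without MLP-F replicate 2. Hrk, an activator of cell death, had 1.41, 1.53, 1.75 and 2.13 in the MLP livers and 0.54, 0.31, 0.94 and 0.37 in the MLP-F livers (1.16, SE 0.18, adjusted p = 0.01). The 4 C livers lay at 0.13 to 0.28, below all 8 of those values.

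RNA processing genes were also split. Of 61 splicing probes 5 were higher and 5 lower (16.4% against 6.54% of all probes), with a median of -0.09, and 6 were called without MLP replicate 2. Srsf6, which selects splice sites, had 3.34, 3.37, 3.30 and 3.12 in the MLP livers and 4.10, 3.92, 4.03 and 3.90 in the MLP-F livers (-0.71, SE 0.07, adjusted p = 0.00177), and Tra2a, of the same role, fell by 0.72. Hnrnpl fell by 0.55. Autophagy and lysosome genes had 5 of 44 higher and 3 lower, 18.2% against 6.54% of all probes. The number called was 3 without MLP replicates 2 or 3, 4 without MLP replicate 1 or MLP-F replicates 1 or 4 and 5 without MLP replicate 4. Map1lc3a, a protein of the autophagosome, rose by 0.75. Oxidative stress genes had 5 of 36 higher and 4 lower, 25% against 6.54% of all probes. The number called was 3 without MLP replicate 2 or MLP-F replicate 4 and 4 without MLP replicates 3 or 4 or MLP-F replicate 1. The glutaredoxins parted, the cytosolic Glrx rising by 0.65 and the mitochondrial Glrx2 falling from 3.61 to 3.82 in MLP-F to 2.84 to 3.10 in MLP (-0.75). Several large lists stood near the 6.54% of all probes: cytosolic ribosomal proteins with 4 of 58 called, ribosome assembly with 3 of 53, translation factors with 2 of 47, proteasome genes with 2 of 35 and bile acid genes with 1 of 24. These counts moved with single livers. Without MLP-F replicate 2, where 9.79% of all probes were called, the first 4 were 13, 7, 7 and 4. Without MLP replicate 3 ribosomal proteins had 2, ribosome assembly had 0 without MLP replicates 2 or 4, translation factors 0 without MLP replicates 2 or 3, proteasome genes 0 without MLP replicates 1, 3 or 4 or MLP-F replicate 1, and bile acid genes 0 without MLP replicates 2, 3 or 4 or MLP-F replicates 1 or 4. Among the ribosomal proteins Rps24 (0.63) and Rpl17 (0.56) rose and Rps3a fell by 0.39, and Rpl17 lost its call without MLP replicate 3 (adjusted p 0.0518).

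The genes that the study itself names for their expression had 7 of 30 kept probes higher and 10 lower, 56.7% against 6.54% of all probes. The number called was 10 without MLP replicate 3 and 11 without MLP replicate 2. These genes were chosen on these samples, so the count and the share are no independent evidence. Beside those already given, Dym, a protein of the Golgi, had 1.21, 1.36, 1.31 and 1.44 in the MLP livers and 1.81, 2.16, 1.94 and 2.09 in the MLP-F livers (-0.67, SE 0.08, adjusted p = 0.00457). Cdk14, a kinase of Wnt signalling, fell by 0.50, and Abcc8, a subunit of the ATP-sensitive potassium channel, and Tpcn2, a lysosomal channel, rose by 0.52 and 0.53. Myh10 (-0.31, adjusted p = 0.252), a nonmuscle myosin, and Abhd6 (-0.03, 0.962), a monoacylglycerol lipase, did not pass.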

How the data were processed

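RNA of 12 livers, 4 for each of the C, MLP and MLP-F diets, was measured on 1 array a liver. Per the study's methods, the authors summarised beads in R (beadarray, limma), quantile normalized the arrays and removed low quality probes. Versions and background correction were not given in the sources used here. Deposited values are log2 values between 4.004 and 4.633, all just above log2 of 16. They were read, from the values alone, as log2 of 16 plus a value already on a log2 scale, and each value v was turned back into 2 to the power v minus 16. Another deposited table, of bead intensities, names its 12 columns by chip and position, which no label matches, so it was not used and position could not be examined as a batch.

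Symbols came from the platform annotation and a RefSeq gene table: a single symbol was found for 13778 of 22505 probes, none for 8727, and several for 0. Probes with a mean over the 8 samples above the 30th percentile (0.1574) were kept. R 4.3.3 and limma 3.58.1 (lmFit and eBayes, 6 residual and 2.52 prior degrees of freedom) compared MLP with MLP-F on the 8 samples, two-sided, with Benjamini-Hochberg adjustment over the 15753 probes. The count of arrays, 4 a group, limits the precision. Gene lists were described by counts of called probes and medians, with no set test, and they overlap. The lists, and the comparison itself, were chosen with earlier results of these data known. Named genes were drawn from the 20 largest rises and falls with no overlap, the 10 smallest p-values, up to 6 called genes of each list by p and the genes the study names. Not all of them are printed. Most genes looked up outside this rule are marked, and Mtr, Nr1i2 and Nr1i3 are among those that are not. A gene with several probes is given by the probe with the smallest p. The script was tested on simulated data. Alternatives covered the scale, the filter, the samples in the fit, normalization, moderation, array weights, the replicate number as a block and each liver left out.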

Additional observations from a re-analysis of the deposited data

Results flagged for a closer look

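Within each group of 4 livers, every gene given with values was examined for a liver whose gap to its nearest neighbour took up more than 0.829 of the group's range. Of 456 groups 23 held such a liver, and chance gives about 1 in 20. In MLP these were C6 in replicate 1 (1.45, the others 1.20 to 1.21), Dnmt3a in replicate 3 (3.46, the others 3.66 to 3.67), Dnmt3b in replicate 1 (2.92, the others 3.24 to 3.28), Foxo3 in replicate 1 (1.16, the others 0.95 to 0.98), Nr1i3 in replicate 1 (1.88, the others 2.51 to 2.59), Pex3 in replicate 4 (1.54, the others 1.72 to 1.75), Rfc2 in replicate 2 (0.22, the others 0.14 to 0.15), Slc39a8 in replicate 2 (0.44, the others 0.76 to 0.81), Tsku in replicate 4 (1.59, the others 2.20 to 2.30) and Tuba1a in replicate 2 (4.36, the others 4.11 to 4.14). In MLP-F they were Htra1 in replicate 4 (1.17, the others 1.01 to 1.02), Map1lc3a in replicate 3 (3.01, the others 2.59 to 2.65), Per1 in replicate 2 (0.93, the others 1.27 to 1.34), Slc25a11 in replicate 2 (2.89, the others 2.19 to 2.20) and Uhrf2 in replicate 1 (3.75, the others 3.51 to 3.54). In C, which enters no test, they were Cbs in replicate 4 (1.94, the others 0.95 to 1.09), Cyp2e1 in replicate 4 (6.08, the others 4.93 to 5.08), Cyp4a1 in replicate 1 (1.33, the others 1.80 to 1.89), Fabp2 in replicate 4 (2.84, the others 3.36 to 3.43), Fkbp5 in replicate 2 (3.91, the others 3.63 to 3.68), Knstrn in replicate 3 (2.77, the others 2.48 to 2.53), Nr1i3 in replicate 2 (2.28, the others 1.50 to 1.56) and Pcna in replicate 2 (5.72, the others 6.15 to 6.19). The count of 23 is near the share that chance gives, and whether anything sets these livers apart was not tested.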

How the results depend on the processing

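The 1030 calls (538 higher, 492 lower) stayed within 1.5 times under 9 of the 10 alternatives that kept all 8 livers: from 711 with no filter on level to 1220 among probes above the 50th percentile. Without moderation of the spread they were 199 (108 higher and 91 lower). With 1 liver left out they ranged from 492 to 1543, the higher from 274 to 817 and the lower from 218 to 726, with the lowest count without MLP replicate 3 and the highest without MLP-F replicate 2. With the replicate number as a block there were 869 calls (465 higher and 404 lower), and 10 instead of 256 at 0.01, a count that was 508 with an intensity trend and robust moderation, 148 with no filter on level and 12 without moderation. Deviations of same-numbered livers correlated at 0.078, -0.057, -0.054 and 0.143, and those of differently numbered livers at -0.206 to 0.189. These correlations cannot show whether a number marks a shared chip or batch, and no label says so. Whether the fit with or without the block is the better test was not settled. Of 233 called probes named by the rule, none turned direction with a call in any alternative; the number that lost the call ran from 0 with median centring to 170 without moderation, and from 14 (without MLP-F replicate 2) to 106 (without MLP replicate 3) with 1 liver left out. Differences of dim probes, near the sample medians of 0.226 to 0.228, are the least certain, and the scale is inferred. The 4 littermates a diet, with diet and litter not separable, bound every statement. What makes these counts move was not tested.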

Other observations

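Genes of other functions also differed, and they are given here as values. Among 63 kept probes for vesicle traffic and membrane fusion 4 were higher in MLP and 2 lower, 9.52% against 6.54% of all probes (11 called without MLP-F replicate 2, 3 without MLP replicate 1, and 2 without MLP replicates 2, 3 or 4 or MLP-F replicates 3 or 4). Rab5b, a small GTPase of early endosomes, had 1.66, 1.45, 1.80 and 1.36 in the MLP livers and 0.37, 0.89, 0.48 and 0.53 in the MLP-F livers (1.00, SE 0.13, adjusted p = 0.00507), and the 4 C livers lay at 1.33 to 1.88. Vamp4, a fusion protein of the Golgi, had 0.64, 0.57, 0.51 and 0.80 in the MLP livers and 1.42, 1.23, 1.27 and 1.35 in the MLP-F livers (-0.69, SE 0.07, adjusted p = 0.002). Both kept their calls with any 1 liver left out. Foxo3, a transcription factor held back by insulin signalling, was the single call of 28 probes for IGF, growth hormone and insulin signalling (3.57% against 6.54% of all probes), at 0.41. Slc39a8, an importer of zinc and manganese, fell by 0.57. Pdia6, which forms disulfide bonds in the endoplasmic reticulum, fell by 0.54. The 40 probes for the integrated stress and unfolded protein response had 0 higher and 3 lower, 7.5% against 6.54% of all probes. That count was 7 without MLP-F replicate 2 and 1 without MLP replicates 1, 2 or 3 or MLP-F replicate 4. Rgn, a lactonase abundant in adult liver, had 1.19, 1.44, 1.59 and 1.24 in the MLP livers and 2.75, 2.18, 2.01 and 2.41 in the MLP-F livers (-0.97, SE 0.16, adjusted p = 0.0116), and Dpt, a protein of the extracellular matrix, ran from 2.86 to 3.14 in the MLP-F livers to 1.35 to 2.13 in the MLP livers. In Rgn and Dpt every MLP liver lay below every MLP-F liver.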
